A study of Caenorhabditis elegans with 12 samples.

Results

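A set of 63 transcripts was abundant in both wild-type and gld-2 RNAi early embryos of Caenorhabditis elegans and scarce in early embryos of 4 other groups. The members were found among 31753 gene features by their own read counts, so their levels are given as a description and were not tested in the contrasts that chose them. Counts were expressed as reads per 1000000 (rpm) of a library's gene reads without the 3 ribosomal RNA features. A member had an N2 mean of at least 5 rpm, and its lowest value in the 4 gld-2 RNAi and N2 libraries was at least 1.5 times its highest value in the other 8 libraries. Of 7169 features over the N2 minimum, 87 met that limit, and 24 of these were left out by name, namely 17 col- collagen genes, 3 vit- yolk genes, 3 msp- major sperm protein genes and 1 nspd- gene.

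The libraries were made by PAT-seq, which tags the 3′ ends of adenylated RNA and gives a read count and a mean poly(A) tail length for each gene. Embryos were collected early, with over 90% of them no older than the 24-cell stage. The 6 groups, each with 2 libraries, were N2 animals fed bacteria making double-stranded RNA against gld-2, pos-1, gld-3 or mex-5, animals carrying the mex-6 allele pk440 in an N2 background, and untreated N2 wild type. The protocols in the labels name E. coli HT115(DE3), induced with IPTG for 6 hours, as food for RNAi and OP50 for N2, so in the RNAi groups the knockdown came with a change of food, and these cannot be told apart. The food of the mex-6(pk440) animals is not separately stated, so whether the comparisons of RNAi with mex-6(pk440) also carry a change of food is not known. Whether both libraries of a group stem from separate cultures is not stated in the labels, and a p-value then measures the spread between these libraries, which may be technical. RNAi lowers a transcript without removing it, and each target's level was checked first. The targeted RNA was at 47.2% of its N2 mean in gld-2 RNAi, 14.7% for pos-1, 8.49% for gld-3, 7.36% for mex-5 and 2.35% for mex-6 in mex-6(pk440) embryos. Total gene reads ran between 4613974 and 10229871 per library, and between 2282121 and 5294610 without the ribosomal RNA features.

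The early C. elegans embryo runs largely on RNA and protein loaded by the mother, and RNA-binding proteins such as POS-1, MEX-5 and MEX-6 set which maternal mRNAs are translated or lost in which cell. GLD-2, a poly(A) polymerase of the cytoplasm, lengthens tails of maternal mRNAs together with its RNA-binding partner GLD-3. Such embryos are collected from adult hermaphrodites, whose intestine makes yolk, whose spermatheca holds sperm and whose uterus holds the eggs. Of the 63 members, 12 match, by their name in the files, a gene on one of 20 lists of tissue and pathway genes. The listed genes dpy-4 (epidermis and cuticle) and asah-2 (lysosomal hydrolases) are members too. They bear other names in the files and are left out of the list counts. A role was given to 32 after the members were seen, among them genes of lysozymes, a gut protease, lipid-binding proteins and muscle proteins. These are bulk libraries, so fewer cells of a type and less RNA per cell cannot be told apart.

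The member with most reads was far-2, which encodes a secreted fatty acid and retinol binding protein and lies on chromosome III at 9081753 to 9082373 in ce10. It had 805 and 817 rpm in gld-2 RNAi, 127 and 32.01 in pos-1 RNAi, 87.3 and 55.3 in gld-3 RNAi, 59.04 and 44.6 in mex-5 RNAi and 258 and 145 in mex-6(pk440) embryos, against 442 and 781 rpm in N2 embryos. Its level in mex-6(pk440) embryos lay above that in the pos-1, gld-3 and mex-5 RNAi libraries. That it lay below both N2 libraries follows from the rule. A second member of the family, far-8, had 10.9 and 13.1 rpm in gld-2 RNAi, 2.43 and 0 in pos-1 RNAi, 1.63 and 0.318 in gld-3 RNAi, 1.16 and 0.859 in mex-5 RNAi and 0.735 and 1.17 in mex-6(pk440) embryos, against 5.10 and 10.6 rpm in N2 embryos.

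Enzymes and peptides of digestion and defence made up 9 members. The lysozyme gene lys-7 (chromosome V, 3481478 to 3482596) had 153 and 146 rpm in gld-2 RNAi, 29.1 and 6.14 in pos-1 RNAi, 19.97 and 15.3 in gld-3 RNAi, 14.2 and 12.4 in mex-5 RNAi and 61.5 and 27.6 in mex-6(pk440) embryos, against 107 and 197 rpm in N2 embryos. T24B8.5, now sysm-1, a small secreted peptide gene used as a reporter of the PMK-1 immune pathway, had 78.8 and 82.4 rpm in gld-2 RNAi, 15.4 and 4.53 in pos-1 RNAi, 6.97 and 10.8 in gld-3 RNAi, 4.63 and 5.15 in mex-5 RNAi and 21.1 and 10.1 in mex-6(pk440) embryos, against 43.6 and 82.6 rpm in N2 embryos. In both genes the 2 N2 libraries were further apart than the 2 gld-2 RNAi libraries. That no library of the other 4 groups reached the lowest N2 value follows from the rule. The gut cathepsin B-like protease gene cpr-1 (chromosome V, 11975645 to 11976678) had 62.2 and 62.7 rpm in gld-2 RNAi, 17.6 and 8.08 in pos-1 RNAi, 8.82 and 3.81 in gld-3 RNAi, 6.08 and 2.58 in mex-5 RNAi and 24.7 and 15.2 in mex-6(pk440) embryos, against 44.01 and 84.0 rpm in N2 embryos. C49G7.3, whose current symbol phat-7 places it in a family related to pharyngeal gland toxins, had 134 and 152.5 rpm in gld-2 RNAi, 37.9 and 5.496 in pos-1 RNAi, 16.49 and 16.205 in gld-3 RNAi, 9.26 and 16.7 in mex-5 RNAi and 37.5 and 30.4 in mex-6(pk440) embryos, against 117 and 182 rpm in N2 embryos. C49G7.3 was the member of this role with the second widest gap, its lowest value among the gld-2 RNAi and N2 libraries being 3.10 times its highest value elsewhere, against 3.52 times for fipr-2, which belongs to a family of fungus-induced peptides. The rest were lys-4, a second lysozyme gene, fip-2, another fungus-induced peptide gene, the peroxidase gene F49E12.1 (skpo-1) and the acid ceramidase gene F27E5.1 (asah-2). Across the 9, the mean over the gld-2 RNAi and N2 libraries was 4.13 to 8.30 times that over the other 8, with a median of 6.15.

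The set also held 2 genes named for regulation by insulin signalling and its transcription factor DAF-16. The first, dct-16 (chromosome V, 20497952 to 20498977), had 98.9 and 82.8 rpm in gld-2 RNAi, 12.95 and 4.53 in pos-1 RNAi, 18.8 and 9.85 in gld-3 RNAi, 11.9 and 2.58 in mex-5 RNAi and 29.6 and 14.8 in mex-6(pk440) embryos, against 48.4 and 100.2 rpm in N2 embryos. The second, dod-23, lies 1255 bp from the member F49E12.1 on chromosome II and had 12.8 and 13.6 rpm in gld-2 RNAi, 1.62 and 0 in pos-1 RNAi, 2.09 and 2.22 in gld-3 RNAi, 1.74 and 0 in mex-5 RNAi and 3.18 and 1.56 in mex-6(pk440) embryos, against 5.48 and 15.9 rpm in N2 embryos. Each was lower in N2 replicate 1 than in N2 replicate 2, as were all 63 members.

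Genes of uterine lumen proteins were C08F11.11 (ule-4) and Y62H9A.6 (ule-5), a pair named for products found in the uterine lumen. C08F11.11 had 81.5 and 77.998 rpm in gld-2 RNAi, 10.1 and 0.323 in pos-1 RNAi, 8.13 and 8.90 in gld-3 RNAi, 2.60 and 1.72 in mex-5 RNAi and 20.6 and 12.5 in mex-6(pk440) embryos, against 43.8 and 61.8 rpm in N2 embryos. Y62H9A.6 had 23.7 and 24.98 rpm in gld-2 RNAi, 3.24 and 0 in pos-1 RNAi, 1.39 and 2.86 in gld-3 RNAi, 1.74 and 1.29 in mex-5 RNAi and 4.16 and 2.73 in mex-6(pk440) embryos, against 18.9 and 33.9 rpm in N2 embryos. The gene next to it, Y62H9A.5 (stha-3), had 16.38 and 16.21 rpm in gld-2 RNAi, 2.23 and 0 in pos-1 RNAi, 1.86 and 0.953 in gld-3 RNAi, 0 and 0 in mex-5 RNAi and 1.71 and 1.17 in mex-6(pk440) embryos, against 13.2 and 19.8 rpm in N2 embryos. A count of 0 in the mex-5 RNAi libraries allows up to 0.868 and 1.29 rpm at 3 reads, counting error only. Y62H9A.5 and Y62H9A.6 lie on opposite strands of chromosome X with 270 bp between them (11882125 to 11882814 and 11883085 to 11883911). They had the widest gaps of all members, their lowest value in the gld-2 RNAi and N2 libraries being 5.94 and 4.53 times their highest value in the other 8. The next were C44B7.5 at 3.96, fipr-2 at 3.52, C49G7.3 at 3.10 and D1086.7 at 2.99.

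The nspc genes, a family of nematode-specific peptides, supplied 6 members. The files hold 18 nspc features, all on chromosome X, in 3 stretches. Of the 7 over the N2 minimum, each had its 4 gld-2 RNAi and N2 libraries above the other 8, as did 183 of the 7169 features (2.55%), a contrast the rule itself used. The one that was no member, nspc-4, missed the limit at 1.499. Summed over the 18 features, the level was 168 and 179 rpm in gld-2 RNAi, 28.3 and 6.47 in pos-1 RNAi, 15.8 and 16.205 in gld-3 RNAi, 9.84 and 9.44 in mex-5 RNAi and 48.3 and 36.99 in mex-6(pk440) embryos, against 109 and 170.4 rpm in N2 embryos. The most abundant, nspc-14 (chromosome X, 12358597 to 12358900), had 54.6 and 67.5 rpm in gld-2 RNAi, 11.5 and 2.59 in pos-1 RNAi, 5.34 and 6.67 in gld-3 RNAi, 2.89 and 4.29 in mex-5 RNAi and 18.6 and 16.7 in mex-6(pk440) embryos, against 46.1 and 62.8 rpm in N2 embryos. The copies are short and similar and one name (nspc-2/nspc-6) covers 2 loci, so reads may have been shared among copies and single copies are uncertain.

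Muscle and cytoskeleton genes were tnt-2, a troponin T of body wall muscle, cpn-4 of the calponin family, ifa-1, an intermediate filament gene, and hsp-43, a small heat shock protein gene. tnt-2 (chromosome X, 8721712 to 8723490) had 96.4 and 96.8 rpm in gld-2 RNAi, 12.35 and 4.20 in pos-1 RNAi, 11.8 and 8.58 in gld-3 RNAi, 16.21 and 12.9 in mex-5 RNAi and 17.9 and 14.8 in mex-6(pk440) embryos, against 47.4 and 66.3 rpm in N2 embryos. ifa-1 had 48.7 and 57.4 rpm in gld-2 RNAi, 6.07 and 4.20 in pos-1 RNAi, 12.31 and 13.03 in gld-3 RNAi, 4.05 and 10.7 in mex-5 RNAi and 9.55 and 9.35 in mex-6(pk440) embryos, against 19.8 and 25.4 rpm in N2 embryos. For both genes the gld-2 RNAi libraries lay above the N2 libraries, and for ifa-1 the highest of the other 8 libraries was a gld-3 RNAi one at 13.03 rpm. cpn-4 had 44.1 and 53.02 rpm in gld-2 RNAi, 8.10 and 1.94 in pos-1 RNAi, 4.64 and 5.40 in gld-3 RNAi, 7.81 and 6.87 in mex-5 RNAi and 11.3 and 10.1 in mex-6(pk440) embryos, against 32.3 and 55.4 rpm in N2 embryos. The 4 members were at 11.5% to 56.01% of their N2 means in gld-3 RNAi and at 24.4% to 41.8% in mex-6(pk440) embryos.

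The pharynx list contributed abu-1, and the epidermis gave the collagen gene dpy-4 and the hedgehog-related gene grd-5. dpy-4, counted as 1 feature with 2 piRNA loci, had 31.1 and 31.5 rpm in gld-2 RNAi, 12.95 and 0.970 in pos-1 RNAi, 1.63 and 2.86 in gld-3 RNAi, 2.32 and 5.58 in mex-5 RNAi and 9.06 and 8.18 in mex-6(pk440) embryos, against 41.9 and 56.1 rpm in N2 embryos. Its gld-2 RNAi values lay below both N2 values, which held for 4 of the 63 members (6.35%), against 34.7% of features over the N2 minimum. The rule asks for high gld-2 RNAi values, which itself limits how many members can lie below N2. abu-1 had 14.1 and 14.9 rpm in gld-2 RNAi, 1.82 and 1.29 in pos-1 RNAi, 0.929 and 0.318 in gld-3 RNAi, 2.60 and 3.86 in mex-5 RNAi and 1.47 and 1.56 in mex-6(pk440) embryos, against 9.44 and 10.2 rpm in N2 embryos. Genes of transport and metabolism were the aquaporin gene aqp-8 of the excretory canal, the carbonic anhydrase gene cah-3, F22B3.4 (gfat-2), an enzyme of hexosamine synthesis, and tbh-1, which makes octopamine. Their mex-5 RNAi means were 22.4% to 37.2% of the N2 means, against a median of 9.24% over all 63 members. No role was assigned to the remaining 31 members, 61 of all 63 having a current symbol in RefSeq, and of these 31 F11E6.3 (epic-1) had most reads, with 97.3 and 91.6 rpm in gld-2 RNAi, 12.95 and 2.91 in pos-1 RNAi, 14.6 and 10.2 in gld-3 RNAi, 17.4 and 17.6 in mex-5 RNAi and 23.3 and 13.2 in mex-6(pk440) embryos, against 42.9 and 75.5 rpm in N2 embryos.

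**Figure D1:**
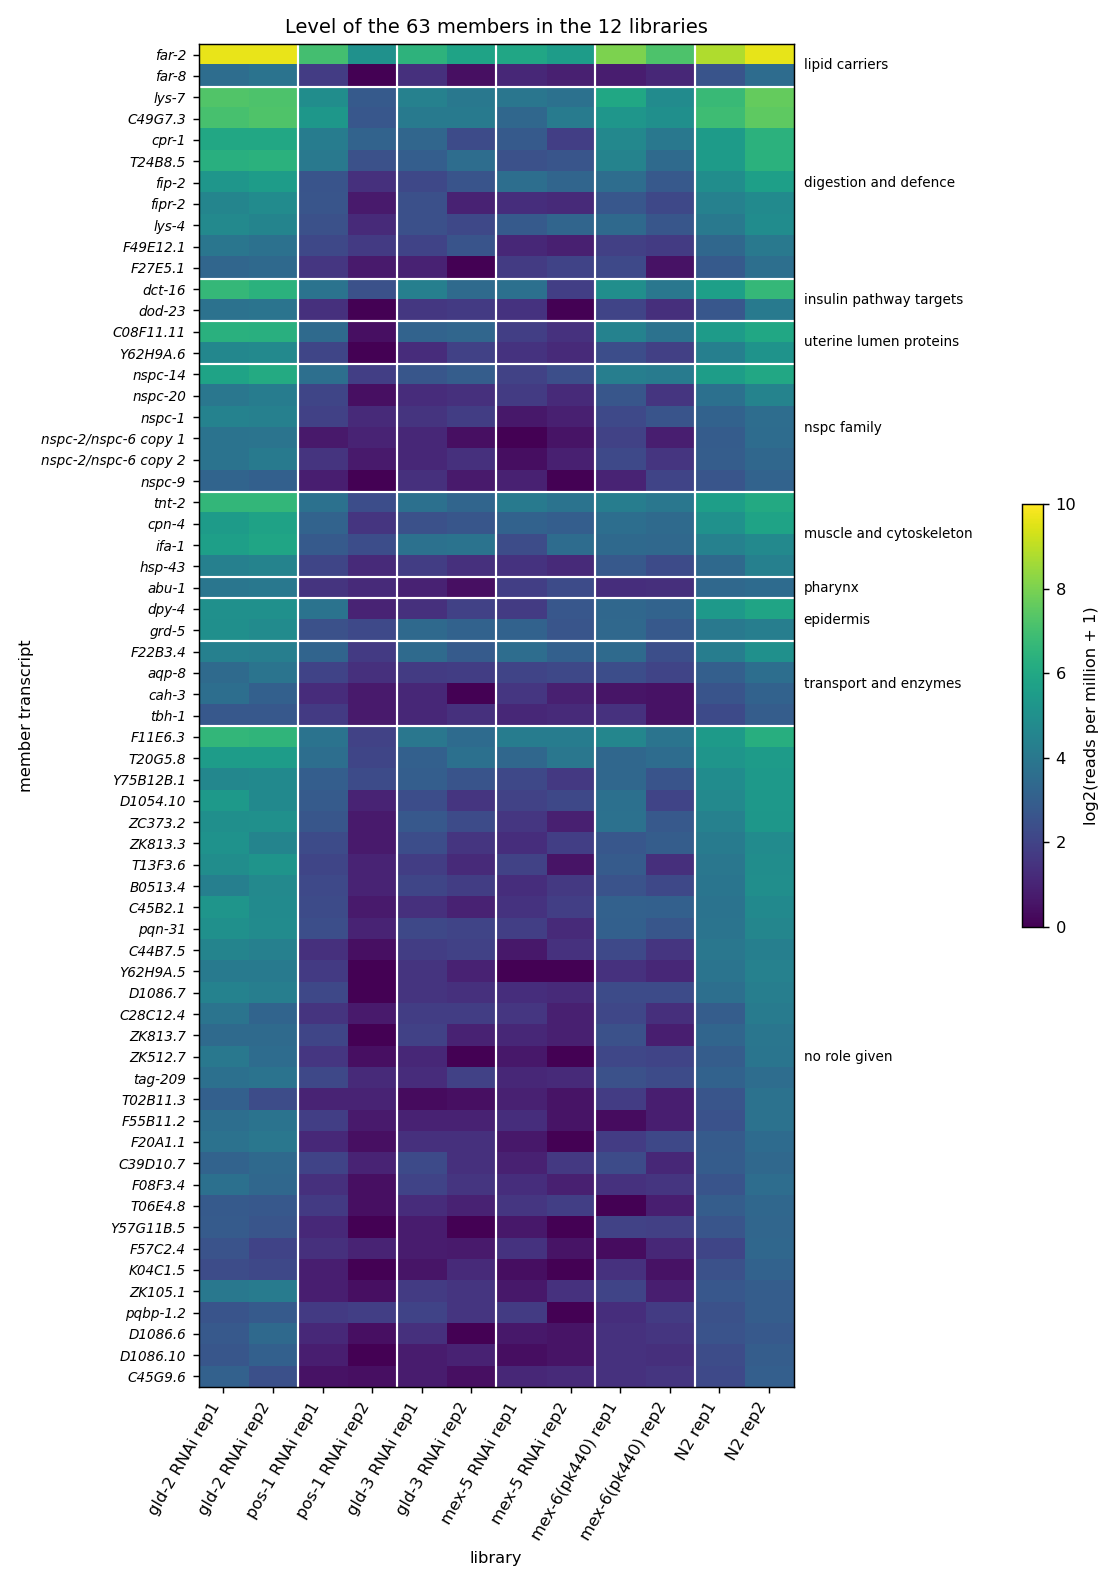
Level of each member (rows, grouped by role) in each library (columns, by group, 2 libraries each), coloured by log2(rpm + 1). The gld-2 RNAi columns at the left and the N2 columns at the right are brighter than the 8 between them in every row, which is how the members were chosen, and the pos-1 RNAi replicate 2 column has the lowest sum, 123 rpm.

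Summed over the 63 members, the level was 2629 and 2642 rpm in gld-2 RNAi, 463 and 123 in pos-1 RNAi, 348 and 272 in gld-3 RNAi, 268 and 242 in mex-5 RNAi and 759 and 470.4 in mex-6(pk440) embryos, against 1614 and 2720.3 rpm in N2 embryos. The set thus took 0.0123% to 0.272% of a library's reads. Among the 4 low groups, mex-6(pk440) had the highest mean for 44 of 63 members (69.8%), against 32.7% of all features over the N2 minimum, and mex-5 RNAi had the lowest for 33 members (52.4%, against 50.9%). Over the members, the median level relative to N2 was 12.998% in pos-1 RNAi, 14.2% in gld-3 RNAi, 9.24% in mex-5 RNAi and 25.99% in mex-6(pk440) embryos. Over all features above the N2 minimum the same medians were 93.3%, 95.4%, 82.6% and 101%. The order of group means of the sum was mex-6(pk440) at 615 ± 204, gld-3 RNAi at 310.2 ± 53.6, pos-1 RNAi at 293 ± 241 and mex-5 RNAi at 255 ± 18.8 rpm, below gld-2 RNAi at 2636 ± 8.75 and N2 at 2167 ± 782 rpm (SD, n = 2 each). The gld-3, pos-1 and mex-5 RNAi mean sums lay closer together than the 2 pos-1 RNAi libraries lay to each other.

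The vit- and msp- families, which had members left out by name, moved between the groups too. The spe- sperm genes, of which 0 were left out, did not separate the sides. They summed to 13.23 to 16.24 rpm in the gld-2 RNAi and N2 libraries, against 11.44 to 22.86 rpm in the other 8. The summed vit- genes, the yolk proteins of the adult intestine, had 490.3 to 515 rpm in gld-2 RNAi and 251 to 448 rpm in N2 libraries, against 32.01 to 146 rpm in the other 8. The summed msp- genes, the major sperm proteins, had 397 to 399.5 rpm in gld-2 RNAi and 289.5 to 431 rpm in N2 libraries, against 20.6 to 247 rpm in the other 8, the highest of which was mex-6(pk440) replicate 1. Without their members, the matched genes of the sperm list summed to 502 to 716 rpm in the gld-2 RNAi and N2 libraries, against 47.7 to 391 rpm in the other 8, and those of the adult intestine list to 551 to 1317 rpm, against 66.9 to 1007 rpm. Of the list of sperm genes, 18 of the 28 non-members over the N2 minimum had their 4 gld-2 RNAi and N2 libraries above the other 8, and of the adult intestine list 5 of 14 did, against 2.55% of all features over the N2 minimum. This is the contrast the rule used, and these lists include msp-, nspd- and vit- genes, which are non-members by name alone where they met the limit. The counts are therefore a description and no separate support. On the same count neurons and glia had 3 of 13, pharynx 2 of 13, body wall muscle 0 of 26, epidermis and cuticle 0 of 25 and oocyte and eggshell 1 of 24, and each of the other 13 lists had 0 or 1. The intestinal factor elt-2 had 5.25 and 2.19 rpm in gld-2 RNAi and 7.55 and 4.59 rpm in N2, against 0 to 2.94 rpm in the other 8 libraries. The muscle myosin gene unc-54 had 139 and 124 rpm in gld-2 RNAi and 52.5 and 70.9 rpm in N2, against 33.6 to 230.1 rpm in the other 8. The part that yolk, sperm or adult tissue RNA played in the members' levels was not tested.

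**Figure D2:**
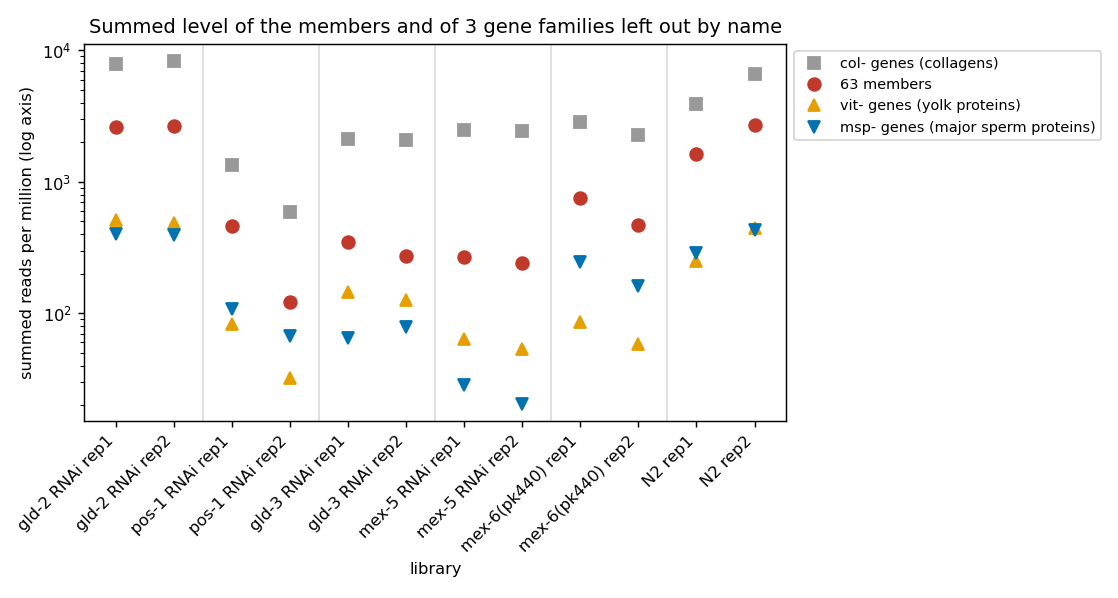
Summed rpm (log axis) of the 63 members, of col- (collagen), vit- (yolk) and msp- (major sperm protein) genes in each of the 12 libraries. The members' sum is 2629 and 2642 in gld-2 RNAi, lies between 123 and 759 in the 8 libraries of the 4 low groups, and is 1614 and 2720.3 in N2, and all 4 sums are lower in N2 replicate 1 than in N2 replicate 2.

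Replicates of N2, pos-1 RNAi and mex-6(pk440) differed in their member RNA. All 63 were lower in N2 replicate 1 than in replicate 2, and 61 of 63 were higher in pos-1 RNAi replicate 1 than in replicate 2. In mex-6(pk440), which 3 of the tested comparisons use, 49 of 63 were higher in replicate 1 than in replicate 2, and the sum was 1.61 times as high. Over all features above the N2 minimum, 56.5% were lower in N2 replicate 1, 45.3% were higher in pos-1 RNAi replicate 1 and 60.3% were higher in mex-6(pk440) replicate 1. The median member difference on the log2(rpm + 1) scale was -0.66 in N2 and 1.15 in pos-1 RNAi, replicate 1 minus replicate 2, against -0.07 and -0.04 over all features. With TMM scaling all but 1 member were lower in N2 replicate 1, and 61 were higher in pos-1 RNAi replicate 1. In mex-6(pk440) 46 were higher in replicate 1 with TMM. In gld-2 RNAi the members split 29 higher and 34 lower. Among sperm genes, the ssp- and spe- sums of pos-1 RNAi lay on the other side from the members. In replicates 1 and 2 they were 16.40 and 18.10 rpm for ssp- and 13.16 and 19.07 rpm for spe-. In N2 the ssp- sum, 38.72 and 49.05 rpm, lay on the members' side, and the spe- sum, 16.24 and 15.88 rpm, did not. The vit-, msp- and col- sums of N2 and pos-1 RNAi lay on the same side as the members. In pos-1 RNAi replicates 1 and 2 they were 83.4 and 32.01 rpm for vit-, 108 and 66.9 for msp- and 1344 and 589 for col-, and in N2 replicates 1 and 2 they were 251 and 448, 289.5 and 431, and 3933 and 6554 rpm.

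**Figure D3:**
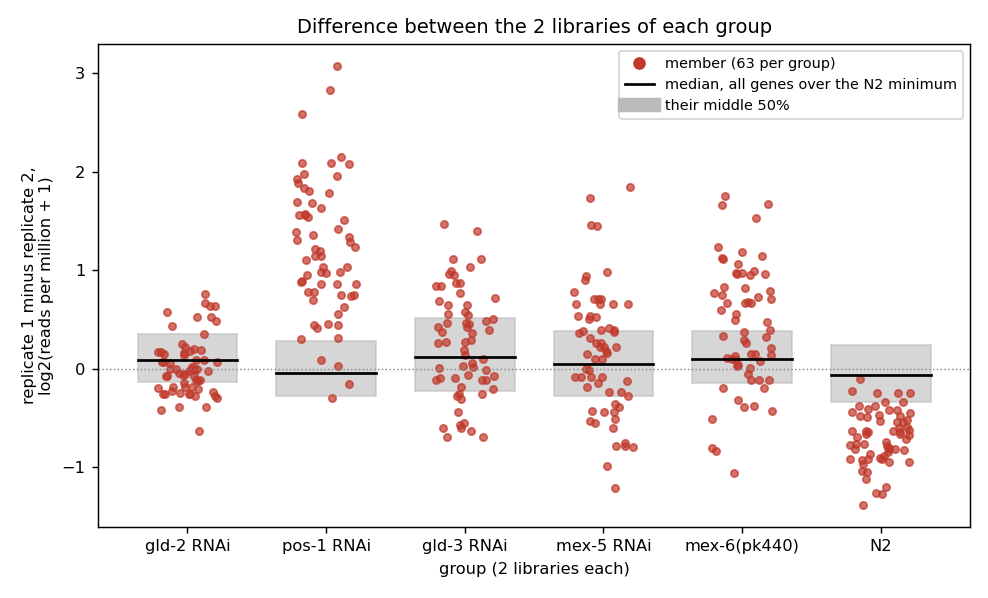
Difference of log2(rpm + 1) between replicate 1 and replicate 2 of each group for each member (red points), with the median (line) and middle 50% (grey box) of all features over the N2 minimum. Every member lies below 0 in N2 and 61 of 63 lie above 0 in pos-1 RNAi.

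The first tested comparison set gld-2 RNAi against N2, both on the high side of the rule, and asked whether the members' levels differed between them. Knockdown of gld-2 and the change of food cannot be told apart in it. edgeR's quasi-likelihood test called 3 of 63 members at an adjusted p under 0.05, all higher in gld-2 RNAi, where 27.4% of the 9328 genes tested were called and 14.6% were called higher. The rule asks for high values in both groups, which limits how far a member can differ between them. ifa-1 had 48.7 and 57.4 rpm in gld-2 RNAi and 19.8 and 25.4 rpm in N2, a log2 difference of 1.13 ± 0.35 (SE, edgeR adjusted p = 0.0286). ZK105.1, with no role assigned, had 14.9 and 17.1 rpm in gld-2 RNAi and 5.48 and 6.70 rpm in N2, a difference of 1.29 ± 0.43 (edgeR adjusted p = 0.0401). nspc-1 had 20.6 and 19.7 rpm in gld-2 RNAi and 7.74 and 10.9 rpm in N2, a difference of 1.02 ± 0.35 (edgeR adjusted p = 0.0454). In all 3 the groups did not overlap, and over the set 21 members (33.3%) had both gld-2 RNAi libraries above both N2 libraries, as 30.4% of features over the N2 minimum did, and 4 (6.35%) had both below, against 34.7%. The median log2 difference was 0.17 over the members and -0.005 over all genes tested. Of the lists, body wall muscle had 16 of 28 genes higher and 0 lower, and epidermis and cuticle 18 of 33 higher and 0 lower. Oocyte and eggshell genes had 1 of 24 higher and 21 lower, and sperm genes 1 of 37 higher and 1 lower. The part that RNA of such tissues played in the members' differences was not tested. The 3 calls rested on all 4 libraries: leaving out either gld-2 RNAi library or N2 replicate 1 left 0, leaving out N2 replicate 2 left 1, and DESeq2 called 1.

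The other tested comparisons lay within the low side of the rule and set pos-1, gld-3 and mex-5 RNAi each against mex-6(pk440), the low group with most member RNA. The 3 share the mex-6(pk440) libraries, and since that group has the highest member sum of the 4, medians below 0 and calls in the lower direction partly restate the order of levels given above. Against mex-6(pk440), edgeR called 7 members lower in mex-5 RNAi embryos and 0 higher, where 6.26% of the 9328 genes were called lower and 21.1% in either direction. They were nspc-14, nspc-1, cpr-1, far-2, C08F11.11, ZC373.2 and F20A1.1, the last 2 with no role assigned. The filter on low counts was passed by many members only through N2 and gld-2 RNAi. In the 4 samples alone 31 members could be tested, and 14 were called lower, as were 591 of 8314 genes. nspc-14 had 2.89 and 4.29 rpm in mex-5 RNAi and 18.6 and 16.7 rpm in mex-6(pk440), a log2 difference of -2.15 ± 0.54 (edgeR adjusted p = 0.0120). For cpr-1 the values were 6.08 and 2.58 rpm in mex-5 RNAi and 24.7 and 15.2 rpm in mex-6(pk440), a difference of -1.97 ± 0.53 (edgeR adjusted p = 0.0164). far-2 had 59.04 and 44.6 rpm in mex-5 RNAi and 258 and 145 rpm in mex-6(pk440), a difference of -1.77 ± 0.50 (edgeR adjusted p = 0.0208). In these 3 both mex-5 RNAi libraries lay below both mex-6(pk440) libraries, a separation that was not counted over all features. C08F11.11, the ule-4 gene, had 2.60 and 1.72 rpm in mex-5 RNAi and 20.6 and 12.5 rpm in mex-6(pk440), a difference of -2.71 ± 0.77 (edgeR adjusted p = 0.0225). The differences of nspc-1, ZC373.2 and F20A1.1 were -2.40 ± 0.63, -2.40 ± 0.74 and -2.80 ± 0.87 (edgeR adjusted p = 0.0150, 0.0330 and 0.0350). In mex-5 RNAi replicates 1 and 2, nspc-1 had only 2 and 2 reads and F20A1.1 only 2 and 0. The median log2 difference was -1.13 over the members, with 48 of 63 below 0, and -0.02 over all genes tested. The count was 3 without mex-5 RNAi replicate 1, 1 without mex-5 RNAi replicate 2, 1 without mex-6(pk440) replicate 1, and 8 without mex-6(pk440) replicate 2.

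Beside these calls stand the 10 lists that hold a member, in a comparison where 14.8% of all genes tested were called higher and 6.26% lower. Of the adult intestine list, 8 of 18 genes tested were higher in mex-5 RNAi and 1, cpr-1, was lower. The lipid carrier list had 6 of 14 higher and 1, far-2, lower. Body wall muscle had 21 of 28 higher and 0 lower, pharynx 8 of 17 higher and 1 lower, and epidermis and cuticle 15 of 33 higher and 1 lower. Lysosomal hydrolases had 8 of 17 higher and 4 lower, defence effectors 15 of 27 higher and 0 lower, and stress and longevity genes 14 of 25 higher and 1 lower. The list of coelomocyte, excretory cell and uterine genes, which holds aqp-8, had 2 of 12 higher and 2 lower. The members tnt-2 of the muscle list, abu-1 of the pharynx list and grd-5 of the epidermis list did not pass the test, with log2 differences of 0.01 ± 0.39, 1.23 ± 0.52 and -0.05 ± 0.35. Sperm genes had 26 of 37 lower and 0 higher, with a median log2 difference of -2.78, and the member nspc-1 is one of the 37. The part that sperm RNA played in the members' difference was not tested.

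Against mex-6(pk440), edgeR called 0 of 63 members in pos-1 RNAi, where 4.65% of genes were called (0.976% higher and 3.68% lower), and 0 in gld-3 RNAi, where 0.515% were (0.15% higher and 0.364% lower). Many members passed the filter on low counts only through N2 and gld-2 RNAi. In the 4 samples alone 37 members could be tested in each comparison, and 0 were called. The median member had 3 reads in pos-1 RNAi replicate 2 and 6 in gld-3 RNAi replicate 2, so these counts say little about the members. At an unadjusted p under 0.05 there were 12 and 11 of 63 members, beside 1737 and 1223 of the 9328 genes tested. DESeq2 called 0 members in each. The median log2 differences over the members were -0.82 in pos-1 RNAi and -0.80 in gld-3 RNAi, with 54 and 47 of 63 below 0, and -0.03 and 0.01 over all genes. far-2 had 127 and 32.01 rpm in pos-1 RNAi and 87.3 and 55.3 rpm in gld-3 RNAi, against 258 and 145 rpm in mex-6(pk440) embryos. Its log2 differences were -1.21 ± 0.48 and -1.46 ± 0.49 (edgeR adjusted p = 0.192 and 0.230). In pos-1 RNAi the count of 0 depended on replicate 1, the library with more member RNA (463 rpm summed, against 123 rpm in replicate 2). Of the pharynx list 7 of 17 genes were lower in pos-1 RNAi, and its member abu-1, not among them, had 1.82 and 1.29 rpm in pos-1 RNAi and 1.47 and 1.56 rpm in mex-6(pk440).

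**Figure D4:**
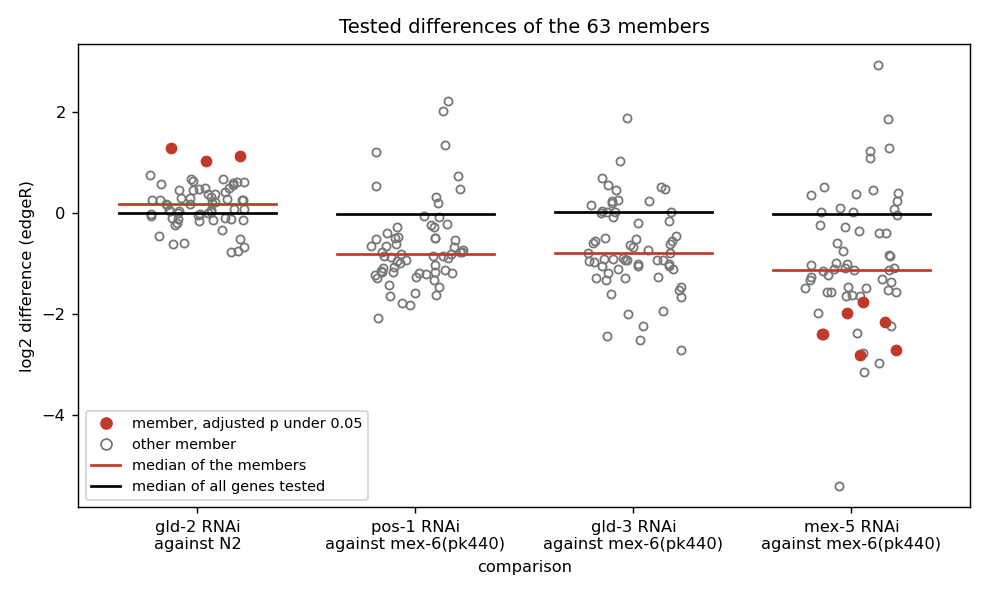
Log2 differences of the 63 members (points, edgeR) in the 4 tested comparisons, with the median of the members (red line) and of all genes tested (black line). Filled points passed an adjusted p under 0.05: 3 higher in gld-2 RNAi than in N2, 7 lower in mex-5 RNAi than in mex-6(pk440), and 0 in each of the other comparisons.

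Poly(A) tail length was not used to choose the members, and the members' tails were longer than those of most genes of the same library. Of the 63 members, 60 had a tail value from at least 10 reads in all 4 gld-2 RNAi and N2 libraries. Their median tail was 56.9 and 60.2 nt in gld-2 RNAi and 60.2 and 52.9 nt in N2, against 46.4 and 46.9 nt in gld-2 RNAi and 45.1 and 41.1 nt in N2 over all 6522 genes with such values. Between 57 and 59 of the 60 members lay above the median gene of their library, and 43 to 50 lay above its upper quartile. The members' median was also the higher one in the 4 ranges of level compared: at N2 means of 5 to 10 rpm the members' median over the 4 libraries was 60.8 nt, against 49.7 nt over all genes, at 10 to 30 rpm it was 58.4 against 45.4 nt, at 30 to 100 rpm 53.1 against 43.9 nt, and from 100 rpm, where only 3 members lie, 55.7 against 43.4 nt. Among the gene families left out by name, medians were 53.6 nt (5 vit- genes), 49.4 nt (60 col- genes), 47.4 nt (20 msp- genes) and 60.9 nt (7 nspd- genes). These are descriptions of the same libraries, and no test was made of the members as a set.

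The longest tails belonged to abu-1, at 76.3 and 78.9 nt in gld-2 RNAi and 70.2 and 64.6 nt in N2. F08F3.4 followed with 79.9 and 66.5 nt in gld-2 RNAi and 77.7 and 61.4 nt in N2. far-2 had 64.1 and 63.9 nt in gld-2 RNAi and 66.2 and 57.3 nt in N2. At the short end, F22B3.4 had 46.6 and 33.5 nt in gld-2 RNAi and 54.9 and 44.9 nt in N2, its 2 gld-2 RNAi libraries being further apart than those of far-2. The immune reporter gene T24B8.5 was also short for the set, at 47.1 and 49.8 nt in gld-2 RNAi and 49.4 and 43.9 nt in N2.

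The targeted gld-2 RNA was still at 47.2% of N2 in the comparison of tails between gld-2 RNAi and N2. limma called 0 of 60 members there, where 0.046% of genes (3 of 6522) were called, so the count is no result about the members, and 0 members had an unadjusted p under 0.05, as 920 genes did. The median difference was 1.93 nt over the members and 2.73 nt over all genes, longer in gld-2 RNAi. The smallest p belonged to aqp-8, with 60.5 and 66 nt in gld-2 RNAi and 46.7 and 57.4 nt in N2, a difference of 11.20 ± 5.45 nt (SE, limma adjusted p = 0.423).

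Only 8 members kept at least 10 reads in all 12 libraries and could be tested between the high and low sides, and limma called 0 of them, where 0.402% of 5468 genes were called. At an unadjusted p under 0.05 there was 1 of the 8, beside 542 of the 5468 genes. It was C49G7.3, with a difference of 5.16 ± 2.07 nt (SE, limma adjusted p = 0.451), longer in the gld-2 RNAi and N2 groups. Its tails were 54.3 and 55.5 nt in gld-2 RNAi, 50.7 and 48.7 in pos-1 RNAi, 48.9 and 53.8 in gld-3 RNAi, 44.6 and 50.4 in mex-5 RNAi and 55.2 and 51.7 in mex-6(pk440) embryos, against 58.9 and 53.9 nt in N2. far-2, whose level differed most between the sides in rpm, had a tail difference of 2.85 ± 2.53 nt (limma adjusted p = 0.814), with 53.5 and 57.3 nt in mex-5 RNAi and 58.7 and 62.3 nt in mex-6(pk440) embryos. The RNA left in the low libraries also had tails above the library median: in mex-6(pk440) replicate 1, 45 of 48 members with a value did, and in mex-5 RNAi replicate 2, 11 of 15.

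**Figure D5:**
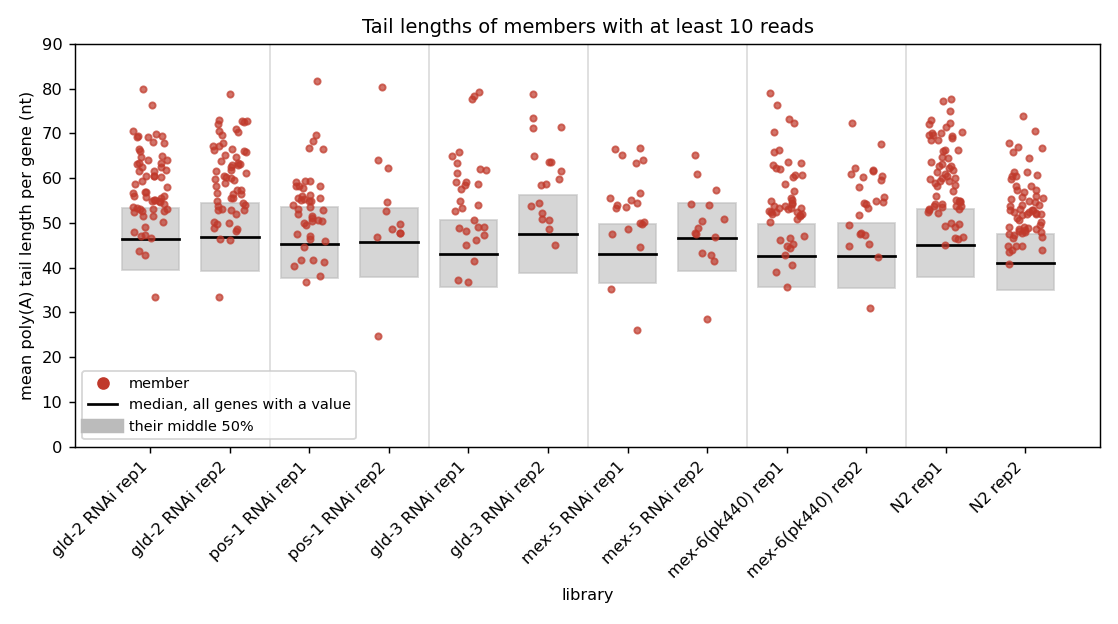
Mean poly(A) tail length per gene (nt) of members with at least 10 reads (red points) in each library, with the median (line) and middle 50% (grey box) of all genes with a value. In gld-2 RNAi and N2, where 60 members or more have a value, 57 to 59 of the 60 members compared lie above the line in each library.

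The members lay unevenly over the chromosomes, and those on X include the 6 nspc members. In ce10 coordinates, 20 of 63 lay on chromosome X (31.7%, against 13.7% of features over the N2 minimum) and 20 on V (31.7%, against 16.3%), while 1, cpn-4, lay on I (1.59%, against 17.98%). Chromosomes II, III and IV held 7, 5 and 10. Within 10000 bp of each other lay 12 members in 7 neighbouring pairs, a count that was not made over all features. Beside the pair of Y62H9A genes and the nspc genes, these were D1086.6, D1086.10 and D1086.7, on 1 strand of chromosome V with gaps of 1218 and 783 bp, ZK813.3 and ZK813.7 on X, 2442 bp apart, and dod-23 and F49E12.1 on II. Between ZK813.3 and ZK813.7 lay 1 other coding feature, and between the copies of nspc-2/nspc-6 lay 3. D1086.7 had 20.4 and 18.4 rpm in gld-2 RNAi, 3.44 and 0 in pos-1 RNAi, 1.86 and 1.59 in gld-3 RNAi, 1.45 and 1.29 in mex-5 RNAi and 3.92 and 3.89 in mex-6(pk440) embryos, against 11.7 and 18.3 rpm in N2 embryos. D1086.6 had 5.88 and 9.64 rpm in gld-2 RNAi, 1.21 and 0.323 in pos-1 RNAi, 1.63 and 0 in gld-3 RNAi, 0.579 and 0.429 in mex-5 RNAi and 1.71 and 1.95 in mex-6(pk440) embryos, against 4.91 and 5.999 rpm in N2 embryos. Where neighbours lie so close on 1 strand, reads that run past a 3′ end could be assigned to the next gene, which was not tested. D1086.6, D1086.10 and D1086.7 each had a poly(A) peak of their own. It held 90.3%, 100% and 98.02% of the gene's reads in the gld-2 RNAi and N2 libraries. In the peak file, 62 members had 1 poly(A) peak and dod-23 had 2, and 53 of the single peaks held at least 95% of their gene's reads in the gld-2 RNAi and N2 libraries, the lowest share being 76.05%. Over all features above the N2 minimum, 71.8% had 1 peak.

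The set has no sharp edge. Just inside the limit were pqbp-1.2 at 1.501, ifa-1 at 1.522 and nspc-1 at 1.530, and just outside were ttr-51 and nspc-4 at 1.499 each and the folate transporter gene folt-2 at 1.480, a gene of the adult intestine list. pqbp-1.2 had 5.04 and 6.13 rpm in gld-2 RNAi, 2.23 and 2.59 in pos-1 RNAi, 3.02 and 1.91 in gld-3 RNAi, 2.32 and 0 in mex-5 RNAi and 1.47 and 2.34 in mex-6(pk440) embryos, against 4.53 and 6.70 rpm in N2 embryos. A limit of 2 times in place of 1.5 left 28 members, and leaving N2 replicate 1 out of the rule raised the count to 121, all 63 among them.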

How the data were processed

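The authors deposited raw whole-number counts of reads, by gene and by poly(A) peak, for 12 PAT-seq libraries (6 groups of 2), 1 column per library. The mean tail lengths in nt that the authors deposited come without the reads behind them, and their computation is not given in the sources used. Per the submitters' processing notes, Bowtie2 2.2.2 and ce10 were used. Per the file headers' source columns, gene models came from UCSC refGene and peaks from nesoni. The columns named for mex-6 RNAi were taken as the mex-6(pk440) samples of the titles.

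The members, the 20 gene lists and the roles were chosen with earlier results of these data known, and the roles after the members were seen. A member kept its place only through its high libraries, so counts over members stand beside the same over all genes. Current symbols were matched by transcript to RefSeq, WBcel235. Counts (without the 3 rrn- features) were tested with edgeR 4.0.16 (TMM, filterByExpr, quasi-likelihood test, all 12 libraries, 1 coefficient per group), tails with limma 3.58.1 (trend), values under 10 reads being treated as missing, with Benjamini-Hochberg adjustment over all genes and a threshold of 0.05. Both were tested on simulated data. TMM moved log2 differences relative to rpm by -0.15 for gld-2 RNAi against N2, and by 0.15, 0.05 and 0.11 for pos-1, gld-3 and mex-5 RNAi against mex-6(pk440). A floor of 3 reads is 0.567 to 1.31 rpm. Replicate libraries differed by more than sampling noise (chi-square per degree of freedom 9.43 to 25.9). Genes named in the text are the 12 members with the highest N2 mean, those on a list, those called, and those at the ends of the ratio. Others are named for a role, a neighbour or a tail chosen after their values were seen.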

Additional observations from a re-analysis of the deposited data

How the results depend on the processing

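The member count of 63 became 28 at a 2 times limit, 38 at an N2 minimum of 10 rpm, 95 at 2 rpm and 27 with ribosomal RNA features kept in the library sum, whose share of reads ran from 35.4% to 56.7%. It was 86 at a looser limit and 67 with TMM scaling, and 60 to 121 on leaving out a library. For gld-2 RNAi against N2, edgeR's 2558 calls became 1138 to 1556 without 1 library and the members called 0 to 1, and DESeq2 called 1 member. For pos-1 RNAi against mex-6(pk440), 434 calls became 811 without a filter on low counts, with 4 members, and 116 to 328 without 1 library, with 0 to 13 members. For gld-3 RNAi, 48 calls became 88 with DESeq2, 302 without a filter (6 members), 23 in the 4 samples alone and 6 to 34 without 1 library. For mex-5 RNAi, 1966 calls became 939 to 1437 without 1 library, and the 7 members called became 1 to 8, 20 without a filter and 14 of 31 tested in the 4 samples alone. Tail calls between gld-2 RNAi and N2, 3 at first, were 37 at 50 reads per value, 22 in complete cases, 0 with log2 tails, centred tails or the 4 samples alone, and 0 to 8 without 1 library. Between the high and low sides 22 tail calls became 4 to 20. No member's tail was called under any of these. The cause of these changes was not tested. RLE factors moved no count by over 1.5 times.

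The labels tie the replicate numbers to no shared culture or day, so the samples were not taken as paired. The correlation of same-numbered deviations ran from -0.15 to 0.46 and was over 0.1 in 9 of 15 pairs of groups, among them mex-5 RNAi with mex-6(pk440) at 0.325 and gld-3 RNAi with mex-6(pk440) at 0.265. With the replicate number as a block, the gld-3 RNAi comparison had 87 calls and the gld-2 RNAi tail comparison 0, and members called were 3 for gld-2 RNAi against N2 and 8 for mex-5 RNAi against mex-6(pk440). The planned count of promoter motifs was not run, because no promoter sequences were used here. Members with few reads limit the low side: in pos-1 RNAi replicate 2, 11 of 63 members had 10 reads or more.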

Other observations

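Among the members with no role assigned, 3 carry current symbols of one family: C45B2.1 (spig-20), F20A1.1 (spig-1) and T02B11.3 (spig-11). C45B2.1 had 35.9 and 26.3 rpm in gld-2 RNAi, 3.85 and 0.647 in pos-1 RNAi, 1.63 and 0.953 in gld-3 RNAi, 1.74 and 2.58 in mex-5 RNAi and 7.59 and 7.40 in mex-6(pk440) embryos, against 12.8 and 25.8 rpm in N2 embryos. F20A1.1 had 12.603 and 14.5 rpm in gld-2 RNAi, 1.21 and 0.323 in pos-1 RNAi, 1.63 and 1.59 in gld-3 RNAi, 0.579 and 0 in mex-5 RNAi and 2.45 and 3.505 in mex-6(pk440) embryos, against 6.23 and 10.2 rpm in N2 embryos. T02B11.3 had 7.35 and 3.94 rpm in gld-2 RNAi, 1.01 and 0.970 in pos-1 RNAi, 0.232 and 0.318 in gld-3 RNAi, 0.868 and 0.429 in mex-5 RNAi and 2.45 and 0.779 in mex-6(pk440) embryos, against 5.29 and 12.7 rpm in N2 embryos. In C45B2.1 and F20A1.1 both gld-2 RNAi libraries lay above both N2 libraries, and in T02B11.3 the higher N2 library lay above both gld-2 RNAi libraries.

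The member furthest above 0 in mex-5 RNAi relative to mex-6(pk440) was T06E4.8 (idpc-5), which did not pass the test. It had 2.03 and 2.58 rpm in mex-5 RNAi and 0 and 0.779 rpm in mex-6(pk440), a log2 difference of 2.92 ± 1.04 (SE, edgeR adjusted p = 0.0616). At these levels a value rests on a few reads.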
